A study of Mus musculus with 5 samples.

Results

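The RLTR and RMER names of the mouse repeat table cover long terminal repeats (LTRs), the ends of endogenous retroviruses and related elements. They were taken as every name that starts with RLTR or RMER and does not end as an internal region does. This gave 229 names of 18538 in the table, 177 of them RLTR and 52 RMER, in 61 number stems such as RLTR6 or RMER17. RMER1 (3 names) and RMER30 (1 name) follow the same rule, although they are commonly classed as other interspersed repeats and not as LTRs.

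All libraries came from NIH3T3, an established mouse embryonic fibroblast line, with a stably expressed CRISPR activator built on dCas9, a Cas9 that binds DNA without cutting it. The L1 sgRNA group (n = 3 libraries) received plasmids for single guide RNAs against the LINE-1 promoter. The scramble sgRNA group (n = 2 libraries) received plasmids for a scramble guide, and both groups were sampled 48 h after transfection. The sources used here do not give the guides' sequences. Nothing in the labels states that the libraries of a group came from different cultures. The spread among the 5 libraries may therefore be technical. In the limma fit the p-values do not rest on that spread alone. There the spread of each name was drawn towards a trend over all tested repeat names.

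An LTR flanks the internal region of a provirus, which encodes the viral proteins, and carries the promoter and polyadenylation signal. Recombination between both LTRs of a provirus leaves a solitary LTR, the form in which most mouse LTR copies are found. LTRs are normally held silent by DNA methylation and by the TRIM28 and SETDB1 histone methylation pathway, and some act as promoters or enhancers of nearby genes. The counts are summed over all genomic copies of a name, so they do not show which copy was transcribed or whether a read began in the LTR. No consensus or locus sequence is printed, because the repeat table gives none.

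Each library of the repeat table held 869941 to 1146936 recovered whole reads, and RLTR and RMER names together held 2.85% to 3.58% of the normalized signal. L1MdTf_I, a name of a young LINE-1 subfamily, was used to check the group labels, since the guides are labelled as against LINE-1. It had 655, 717 and 643 normalized reads in L1 sgRNA libraries, against 329 and 313 in scramble libraries. Of the fibroblast markers, 12 of 12 had a mean of at least 10, with sums of 531953 to 555632 normalized reads in L1 sgRNA and 742124 to 802281 in scramble libraries. Sparc went the other way, with 41763, 40526 and 43860 in L1 sgRNA and 38717 and 40139 in scramble libraries. For Pdgfrb and Postn the groups overlapped, and the other fibroblast markers were lower in every L1 sgRNA library. Sums run over every listed marker of a cell type, and the parentheses below count those with a mean of at least 10. For leukocyte markers (4 of 5) the sums were 91.9 to 122 in L1 sgRNA and 23.6 to 27.8 in scramble libraries. Epithelial markers (2 of 5) summed to 43.2 to 44.6 in L1 sgRNA and 38.2 to 38.5 in scramble libraries, and endothelial markers (3 of 4) to 64.8 to 109 in L1 sgRNA and 67.5 to 84.5 in scramble libraries. No defining marker of these cell types was at 0 in all libraries. Their part in the results was not tested.

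Of 168 names with a mean of at least 10 normalized reads, 26 passed at an adjusted p below 0.05 (limma on log2 of the value plus 1, Benjamini-Hochberg over all 1257 tested repeat names). Among RLTR names 15 of 122 tested (12.3%) were higher with L1 sgRNA and 3 (2.46%) lower. Among RMER names 7 of 46 tested (15.2%) were higher and 1 (2.17%) lower. Among all tested repeat names 12.4% passed, 9.39% as higher and 3.02% as lower. The shares of lower names lie at this background and the shares of higher names a little above it, with no test of the difference. In 47 of the 168 names (28.0%) every L1 sgRNA library was above both scramble libraries and in 27 (16.1%) below both. Of all tested repeat names 40.6% had such groups without overlap, 21.4% as higher and 19.2% as lower. The median log2 change was 0.02 for RLTR and 0.04 for RMER names, beside -0.02 over all tested names. The 61 names under the limit, 5 of them at 0 in every library, were not tested.

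Most calls depended on the library scramble 2. Without it 4 of the 26 names passed, RLTR6_Mm, RLTR6B_Mm, RLTR6C_Mm and RMER12B. The other 22 then had adjusted p between 0.0739 and 0.375, and calls among all repeat names numbered 62 in place of 156. These same 4 names passed under all 15 alternatives tried. Without scramble library 1, 17 of the 26 passed, and without L1 sgRNA library 1, 16 passed.

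**Figure D1:**
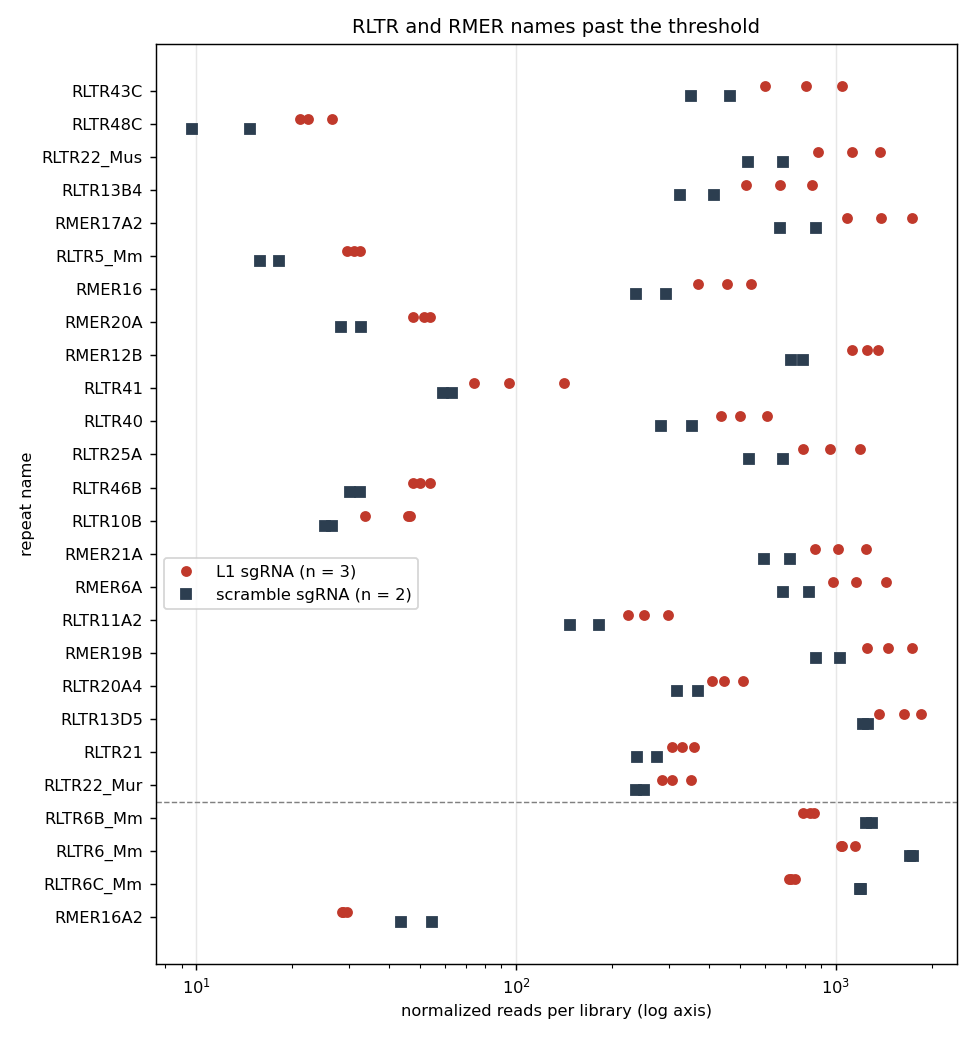
Normalized reads in each library (log axis) of the 22 names that rose and, below the dashed line, the 4 that fell. Red circles are the 3 L1 sgRNA libraries and dark squares the 2 scramble libraries of the same name. The circles and squares do not overlap for any of the 26 names.

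All 3 RLTR6 names, the LTRs of VL30 elements, fell. VL30 is a retrovirus-like family that lacks functional viral genes and is known for abundant RNA in mouse fibroblasts. RLTR6_Mm had 1152, 1044 and 1037 normalized reads in L1 sgRNA libraries, against 1738 and 1711 in scramble libraries. It fell by 0.68 on the log2 scale (SE 0.0925, adjusted p = 2.8e-05). RLTR6C_Mm had 744, 725 and 715 with L1 sgRNA, against 1200.4 and 1188 with scramble. It fell by 0.71 (SE 0.0906, adjusted p = 1.21e-05), with means of 728 ± 14.7 in L1 sgRNA and 1194 ± 8.58 in scramble libraries (SD, n = 3 and n = 2). RLTR6B_Mm had 853, 828 and 791 with L1 sgRNA, against 1294 and 1242 with scramble, and fell by 0.62 (adjusted p = 6.95e-05). In each of the 3 names the highest L1 sgRNA library was far below the lowest scramble library. Their summed signal fell by 37.2%, with 2630 ± 107 normalized reads in L1 sgRNA and 4187 ± 63.7 in scramble libraries. In bulk RNA, fewer cells of a kind and less RNA per cell cannot be told apart.

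The internal regions that belong to RLTR6 fell as well. MMVL30-int, the VL30 body, had 6809.5, 6064 and 6290.0 normalized reads with L1 sgRNA, against 9469.7 and 10744 with scramble. It fell by 0.66 (SE 0.103, adjusted p = 0.000132), close in size to its LTRs. RLTR6-int fell by 0.46 (adjusted p = 0.00283), having 3392, 3163 and 3110.2 with L1 sgRNA, against 4061 and 4844 with scramble. Without scramble library 2 MMVL30-int still passed (-0.57, adjusted p = 0.0487) and RLTR6-int did not (-0.34, adjusted p = 0.209). LTR and internal reads of an element can come from the same transcripts, so these falls are not separate measurements. The sources used here do not say how reads matching several RLTR6 names were divided.

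RLTR4_Mm, an LTR of the murine leukaemia virus family with similar read numbers, did not pass. It had 1264, 1094 and 1155 normalized reads in L1 sgRNA libraries, against 1303 and 1282 in scramble libraries (-0.15, SE 0.0945, adjusted p = 0.403), with no overlap of the groups. Its internal region RLTR4_MM-int changed by -0.12 (adjusted p = 0.531), and there the groups overlapped. The difference between RLTR6 and RLTR4 was not tested.

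**Figure D2:**
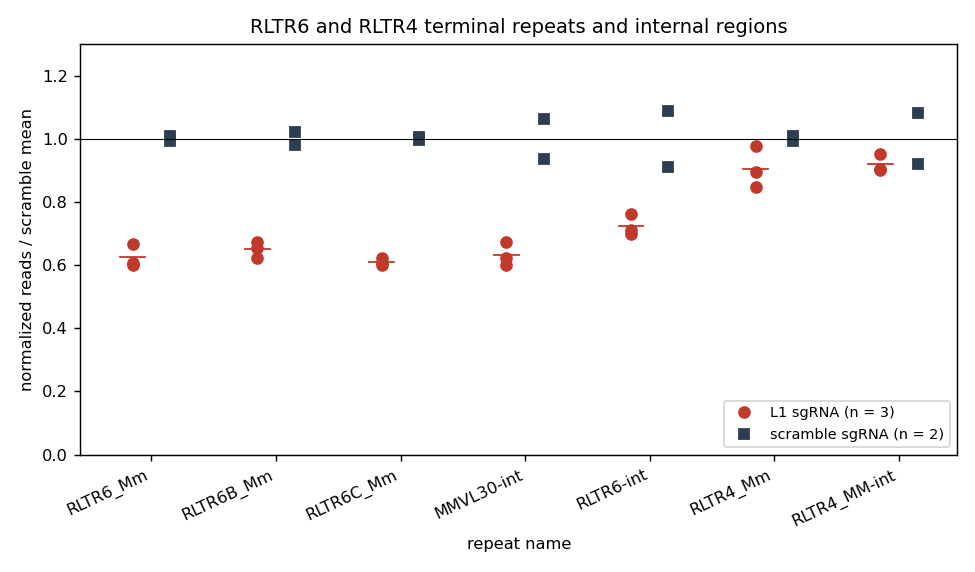
Reads of RLTR6 and RLTR4 terminal repeats and internal regions, each divided by its scramble mean (y axis from 0). Red circles are L1 sgRNA libraries with their mean as a line, dark squares scramble libraries. The 3 RLTR6 names and MMVL30-int lie well below 1 in all L1 sgRNA libraries, and RLTR4_Mm and RLTR4_MM-int lie near 1.

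Other internal regions fell while no LTR of their stem passed as lower. Of 21 internal regions paired with RLTR or RMER stems, 19 were tested. By limma 6 passed as lower (31.6%, beside 3.02% of the table) and 0 as higher. DESeq2 and edgeR also called none higher. The 6 include MMVL30-int and RLTR6-int, whose LTRs did fall. All 6 had a mean above 300 normalized reads, and among all repeat names with so many reads 9.46% passed as lower. MMVL30-int and the early transposon names were paired by their known flanking LTRs, not by stem. RLTR1B-int fell by 0.64 (adjusted p = 9.02e-05), with 3222, 2997 and 3049 normalized reads in L1 sgRNA and 4511 and 5119 in scramble libraries. Its LTR RLTR1B had 97.7, 109 and 105 with L1 sgRNA, against 107 and 105 with scramble (-0.03, adjusted p = 0.949). Much lower read numbers stand behind the LTR than behind the internal region.

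The early transposons (ETn) and their relatives are mouse elements known for causing new insertional mutations. Their internal names MMETn-int (-0.47, adjusted p = 0.00413) and ETnERV-int (-0.40, adjusted p = 0.0138) fell. The ETn terminal repeat RLTRETN_Mm had 109, 91.3 and 87.5 normalized reads with L1 sgRNA and 104 in each scramble library (-0.13, adjusted p = 0.678). RLTR10-int fell by 0.32 (adjusted p = 0.0269), while RLTR10, the stem's name with the most reads, changed by -0.11 (adjusted p = 0.583). Another LTR name of that stem, RLTR10B, rose (0.66, adjusted p = 0.0499). The fall of RLTR10-int passed in DESeq2 (adjusted p = 0.0432). It did not pass in edgeR (adjusted p = 0.054) or in limma with table totals (adjusted p = 0.184). RLTR1B-int and the ETn names were singled out after their values were seen, and the differences between LTR and internal region were not tested. Internal regions that share a stem with risen RMER names did not pass, RMER16-int (-0.10, adjusted p = 0.803), RMER17C-int (-0.08, adjusted p = 0.897) and RMER6-int (-0.34, adjusted p = 0.696). Leaving out scramble library 2 left 2 internal regions past the threshold, and scaling to table totals left 3.

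RMER12B, an ERVK-class LTR name, was the only one of the 22 risen names that passed under every alternative. It had 1351, 1124 and 1249.8 normalized reads in L1 sgRNA libraries, against 787 and 723 in scramble libraries. The rise was 0.71 (SE 0.0997, adjusted p = 3.73e-05), or 1242 ± 114 with L1 sgRNA beside 755 ± 45.2 with scramble (SD, n = 3 and n = 2). Its relatives RMER12C (0.24, adjusted p = 0.231) and RMER12 (-0.26, adjusted p = 0.233) did not pass.

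The largest rise was in RLTR43C, with 1048, 599.9 and 809 normalized reads in L1 sgRNA libraries, against 466 and 353 in scramble libraries. It rose by 0.98 (SE 0.163, adjusted p = 0.000258; without scramble library 2 it had 0.78 and adjusted p = 0.11). RLTR43A and RLTR43B, the other names of its stem, had means of 0.709 and 0. RLTR43C carried nearly all reads of its stem.

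Of the RLTR13 names, 23 were tested and 2 rose. RLTR13B4 had 844, 523 and 669.7 normalized reads with L1 sgRNA, against 416 and 326 with scramble, and rose by 0.85 (adjusted p = 0.000406). RLTR13D5, of which copies are known as enhancers in mouse trophoblast cells, had 1847, 1368 and 1636 with L1 sgRNA, against 1265 and 1218 with scramble. It rose by 0.37 (adjusted p = 0.0301), which did not pass without either scramble library (adjusted p = 0.225 and 0.328) or without L1 sgRNA library 1 (adjusted p = 0.175). The other 21 RLTR13 names had log2 changes between -0.39 and 0.34, and none passed.

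Both RLTR22 names rose. RLTR22_Mus had 1379, 879 and 1120.1 normalized reads with L1 sgRNA, against 685 and 530.5 with scramble (0.88, SE 0.144, adjusted p = 0.000208). RLTR22_Mur had 353, 287 and 308 with L1 sgRNA, against 251 and 237 with scramble (0.37, adjusted p = 0.0371). It did not pass in DESeq2 (adjusted p = 0.17) or in limma without L1 sgRNA library 1 (adjusted p = 0.193). Whether the 2 names differ in their rise was not tested.

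Single names of other RLTR stems also rose. RLTR25A had 1187, 792 and 961 normalized reads in L1 sgRNA libraries, against 683 and 537 in scramble libraries (0.67, adjusted p = 0.00147). Its relative RLTR25B changed by 0.08 (adjusted p = 0.728). RLTR40 had 611, 438 and 501 with L1 sgRNA, against 354 and 284 with scramble (0.69, adjusted p = 0.000818). RLTR11A2 had 299, 251 and 224 with L1 sgRNA, against 182 and 147 with scramble (0.64, adjusted p = 0.00196). The groups did not overlap in any of these names, which holds for every name past the threshold. RLTR20A4 (0.41, adjusted p = 0.0212) and RLTR21 (0.37, adjusted p = 0.0352) rose by less. Neither passed in DESeq2 (adjusted p = 0.0713 and 0.163) or in limma without L1 sgRNA library 1 (adjusted p = 0.112 and 0.156).

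RLTR names with few reads rose too. RLTR41 had 141, 74.1 and 94.9 normalized reads with L1 sgRNA, against 63.1 and 58.9 with scramble (0.70, adjusted p = 0.0232). RLTR46B had 50.2, 47.6 and 53.8 with L1 sgRNA, against 30.3 and 32.6 with scramble (0.67, adjusted p = 0.0214). RLTR10B had 46.5, 46.0 and 33.7 with L1 sgRNA, against 26.7 and 25.3 with scramble (0.66), and at an adjusted p of 0.0499 it lay just inside the threshold. These 3 names did not pass without scramble library 1 or scramble library 2. RLTR5_Mm had 32.6, 31.2 and 29.5 with L1 sgRNA, against 18.2 and 15.8 with scramble (0.84, adjusted p = 0.0213). RLTR48C had 22.3, 26.5 and 21.1 with L1 sgRNA, against 9.70 and 14.7 with scramble (0.90, adjusted p = 0.0433). Neither passed without scramble library 1 or 2.

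Each of the 7 risen RMER names came from a stem of its own. RMER17A2 had 1735, 1081 and 1384 normalized reads in L1 sgRNA libraries, against 867 and 670.4 in scramble libraries (0.85, SE 0.146, adjusted p = 0.000356). The other 7 RMER17 names lay between -0.31 and 0.45 and did not pass, RMER17A being the highest at 0.45 (adjusted p = 0.0535). RMER16 had 541, 369.8 and 457 with L1 sgRNA, against 295 and 237 with scramble (0.77, adjusted p = 0.000499). RMER16A2 of the same stem fell, having 28.8, 29.6 and 28.5 with L1 sgRNA, against 43.7 and 54.7 with scramble (-0.73, adjusted p = 0.0198). That fall did not pass without scramble library 2 (adjusted p = 0.254).

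RMER19B had 1728, 1249.7 and 1452 normalized reads in L1 sgRNA libraries, against 1028 and 866 in scramble libraries (0.63, adjusted p = 0.000818). RMER19A had the most reads of all members, 2495, 2644 and 2329 with L1 sgRNA, against 2886 and 2427 with scramble, and its groups overlapped (-0.09, adjusted p = 0.666). Whether these names of 1 stem differ in their change was not tested.

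RMER6A had 1436, 979.8 and 1159 normalized reads with L1 sgRNA, against 826 and 682 with scramble (0.65, adjusted p = 0.00126). RMER21A, an ERV1-class name, had 1241, 861 and 1017 with L1 sgRNA, against 717 and 598 with scramble (0.65, adjusted p = 0.00106). RMER20A had 53.9, 51.5 and 47.5 with L1 sgRNA, against 32.7 and 28.4 with scramble (0.72, adjusted p = 0.0139). As in every name past the threshold, the groups did not overlap for these 3. None passed without scramble library 2 (adjusted p = 0.162 to 0.185), and RMER20A did not pass without L1 sgRNA library 1 either (adjusted p = 0.0647).

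**Figure D3:**
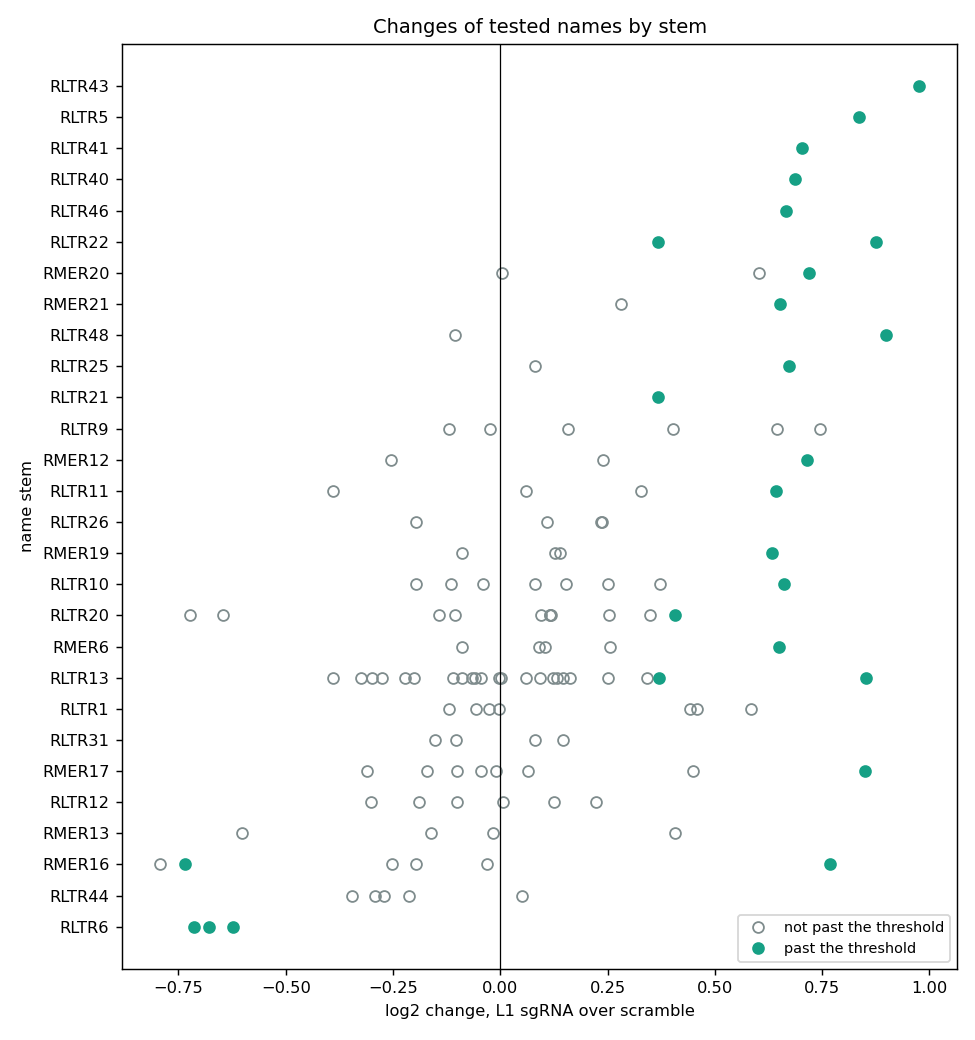
Log2 change (L1 sgRNA over scramble) of tested names, by stem, for stems with at least 4 tested names or a name past the threshold. Filled points passed and open points did not. In RLTR13, RMER17, RMER6 and RMER19 the filled points stand to the right of the other names of the stem.

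Several well-studied stems gave no call by limma. RLTR9, known for copies active in mouse embryonic stem cells, had 6 tested names with changes between -0.12 and 0.74 and 0 past the threshold. RLTR17, also known from embryonic stem cells, had 1143, 1069 and 1220.2 normalized reads in L1 sgRNA libraries, against 1360.4 and 1366 in scramble libraries. Its groups did not overlap, but the change of -0.26 (SE 0.0934, adjusted p = 0.0861) did not pass. The ERVL-class names RMER10A, RMER10B and RMER15 lay between -0.14 and 0.02. RMER1 and RMER30, which are not LTRs, lay between -0.12 and 0.23. Just outside the threshold were RLTR20B1 (-0.72, adjusted p = 0.053), RLTR35B_MM (-1.18, adjusted p = 0.0535) and RLTR10C (0.37, adjusted p = 0.057).

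Calls were concentrated in names with many reads. Of 27 members with a mean of at least 300 normalized reads, 14 rose (51.9%) and 3 fell. Among all repeat names with so many reads 18.6% rose and 9.46% fell. Of 67 members with a mean of 50 to 300, 3 rose (4.48%, beside 11.0% of the table), and of 74 with 10 to 50, 5 rose (6.76%, beside 3.50%). Among the 19 risen names whose stem has other names, 13 had the most reads of their stem. For RLTR41, RLTR43C and RLTR46B the filter fixed this, as no other name of their stem was tested. The share among names that did not rise was not counted. All values here are read numbers, not corrected for the length or copy number of a name, neither of which the table gives.

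**Figure D4:**
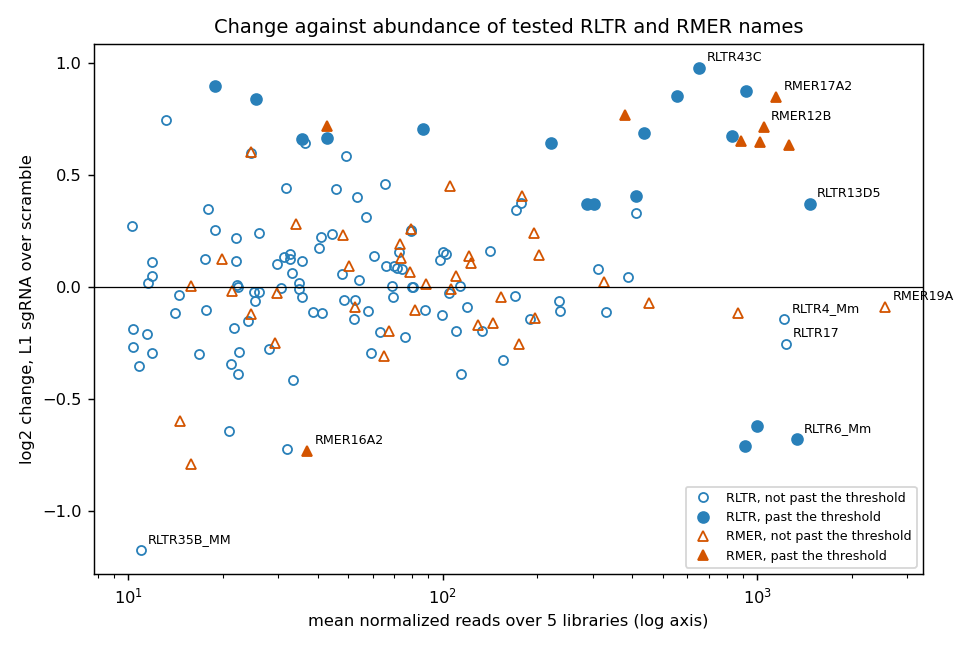
Log2 change against the mean normalized reads over 5 libraries (log axis) for the 168 tested names. Blue circles are RLTR and orange triangles RMER names, filled where past the threshold. Filled points above 0 gather at the right of the plot, and the RLTR6 names lie below at the same read numbers.

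Most of the risen names shared a pattern over libraries that does not follow the groups alone. In 16 of the 22, the libraries ran in the order L1 sgRNA 1, L1 sgRNA 3, L1 sgRNA 2, scramble 1, scramble 2 from high to low. This order held for 4.69% of all tested repeat names, and for 20 of the 96 other repeat names that rose (20.8%). The order needs groups without overlap, which all 22 risen names have, so the 4.69% is not a like background. In the 16 names L1 sgRNA library 1 had 1.17 to 1.91 times the reads of L1 sgRNA library 2, and scramble library 1 had 1.04 to 1.32 times those of scramble library 2. The normalized total of the whole repeat table was also lowest in L1 sgRNA library 2. It was 1017099, 894684 and 1020027 in L1 sgRNA libraries 1, 2 and 3, and 1054816 and 1016171 in scramble libraries 1 and 2. RLTR5_Mm, RLTR10B, RLTR11A2, RLTR46B, RLTR48C and RMER20A had other orders. The order was noticed after the values were seen and is a description.

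In 3 names of B2, a short repeat transcribed by RNA polymerase III, the libraries ran in the same order. B2_Mm1a had 2988, 2149.9 and 2487 normalized reads with L1 sgRNA, against 1781 and 1411 with scramble (0.67, adjusted p = 0.000745). B2_Mm1t rose by 0.59 (adjusted p = 0.00159) and B2_Mm2 by 0.32 (adjusted p = 0.048). The transfer RNA name tRNA-Cys-TGY had 624, 382 and 495 with L1 sgRNA, against 289 and 221 with scramble (0.96, adjusted p = 0.000198). All 4 were chosen after their values were seen, and their part in the LTR rises was not tested. Because names with such a shared course are not independent, the 16 rises need not be 16 separate measurements.

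**Figure D5:**
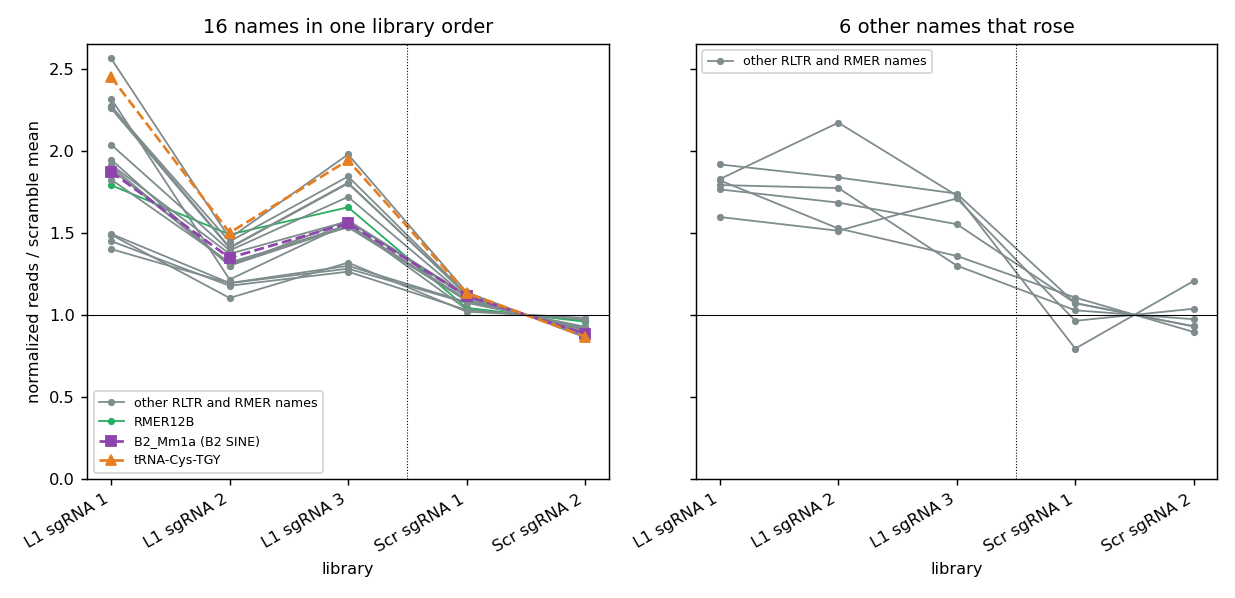
Normalized reads in each library divided by the scramble mean, for the 16 risen names with the same library order (left, with B2_Mm1a and tRNA-Cys-TGY dashed) and the 6 with another order (right). On the left every line dips at L1 sgRNA library 2 and is highest at L1 sgRNA library 1.

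The summed signals of RLTR and RMER names differed in how far the groups stood apart. All RLTR names together had 21203, 18328 and 19238 normalized reads in L1 sgRNA libraries, against 19243 and 18177 in scramble libraries. This change of 4.70% came with overlapping groups (exact permutation test, two-sided, p = 0.5, with 0.1 as the smallest p this design can give). All RMER names together had 15242, 12993 and 13617 with L1 sgRNA, against 12151 and 10822 with scramble. The change was 21.5% with no overlap (the same exact permutation test, p = 0.1). In RLTR the 15 risen names gained 2636 normalized reads and the sum of the 3 RLTR6 names fell by 1557, so the total holds changes in both directions. In RMER the 7 risen names gained 2678, and the 44 names that did not pass changed by -2.67%. In both families the names were split by their calls in these same libraries. The direction of the gains and falls was fixed by that split. Whether the RLTR and RMER sums differ in their change was not tested.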

How the data were processed

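RNA-seq libraries of NIH3T3 cells were analysed from the authors' deposited tables of repeat names and genes. These deposited values are a normalized signal, and the values themselves show read counts divided by a factor for each library. Tools listed by the submitters' processing notes are DESeq2, SAMtools 1.9, bedtools 2.27.1, Bowtie2 2.2.9 and STAR 2.5.3a, with the builds mm10 and GRCm38. The sources used here do not give the counting settings, the strandedness or the treatment of reads that match several repeats. Dividing each library by the worth of 1 read gave whole reads for 100% of repeat values, within 0.0001 reads.

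limma 3.58.1 (R 4.3.3) was fitted to the repeat table, as log2 of the deposited signal plus 1, with a variance trend and no further scaling, over 1257 names with a mean of at least 10. Changes on this log2 scale understate those of names with few reads. A name passed at an adjusted p below 0.05. The fit was tested on simulated data. Sums were compared by exact permutation. edgeR 4.0.16 and DESeq2 1.42.0 on recovered reads were alternatives.

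Names described are those past the threshold, those with the most reads, and internal regions of their stems. Others were picked once values were known. The members and lists were chosen with earlier results of these data known. ERVK, ERV1 and ERVL classes are general knowledge, not from the table.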

Additional observations from a re-analysis of the deposited data

How the results depend on the processing

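Of the 26 calls, 4 (RLTR6_Mm, RLTR6B_Mm, RLTR6C_Mm and RMER12B) passed under every alternative, and none of the 26 changed sign. The number of RLTR names past the threshold (18) was 10 with no filter on low values, 5 without the variance trend and 10 in DESeq2, and ranged from 5 to 20 on leaving out a library. The number of RMER names (8) was 3 without the variance trend and ranged from 1 to 11 on leaving out a library. Of the 26 names, 8 passed without the variance trend, 16 of 25 in DESeq2, and 4 to 26 on leaving out a library, the fewest without scramble library 2. Internal regions past the threshold (6) were 3 with table totals and 2 without the variance trend, and ranged from 2 to 8 on leaving out a library. With fewer samples a lone scramble library is assumed to vary like the L1 sgRNA libraries. For the other changes the cause was not tested. Of the 26 names, 6 have a mean under 50 and were not tested with that filter. With replicate number as a block, 24 RLTR names, 10 RMER names and all 26 calls passed, and so did RLTR17 (-0.30, adjusted p = 0.0154). Only L1 sgRNA has a replicate 3, so in the block fit that library adds nothing to the change. RLTR17 likewise changed by -0.30 on leaving out L1 sgRNA library 3, so these alternatives are not separate checks. Deviations of same-numbered libraries correlated at 0.0512 and 0.118, so the numbers were not taken to pair the samples. The RLTR sum changed by 0.39 to 8.07% and the RMER sum by 14.8 to 28.9% on leaving out a library. With table totals the RLTR sum changed by 11.1% (exact permutation p = 0.2) and the RMER sum by 28.9% (p = 0.1). Over names with a mean of at least 50 the RMER sum changed by 22.2% (exact permutation p = 0.2).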

Other observations

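RLTR12B2 and RLTR12F had identical values in all 5 libraries, with a mean of 1.58 normalized reads, and were not tested. The names RMER3D1, RMER3D2, RMER3D3, RMER3D4 and RLTR43B had no read in any library.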
